A study of Mus musculus with 3 samples.

Results

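The cells described here were 164 pancreatic beta cells with high *Ddit3* from the islets of Taf4 mutant mice, 1 week after inactivation of *Taf4*, out of 2295 cell barcodes in that library and 25524 in the series. They were chosen by their own RNA: 8000 or more unique molecular identifiers (UMIs), under 15% of UMIs from mitochondrially encoded genes, *Ins2* at 5% or more, *Gcg* under 2%, *Sst* under 1%, and *Ddit3* at 0.25% or more of all UMIs. The same limits without *Ddit3* were met by 500 barcodes, so the *Ddit3*-high cells were 32.8% of them (exact binomial 95% interval 28.7 to 37.1). The other 336, with *Ddit3* under 0.25%, served as the comparison cells. Because cells were selected on *Ddit3* within 1 library, every difference between the 2 sets is a description of how the chosen cells look, with no test.

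The study inactivated *Taf4*, a subunit of the general transcription factor TFIID, in adult beta cells and asked what became of the islet cells. Floxed *Taf4* alleles were combined with a tamoxifen-inducible Cre driven from the insulin promoter, so that inactivation is directed to insulin-producing cells and needs recombination in each of them. The 3 conditions in C57/Bl6 mice were each 1 library of isolated islets: genotype Wild type, and genotype TAF4 KO (Taf4 mutant) at 1 week or 5 weeks. By the methods 1 male mouse gave the WT islets, and the islets of 2 male mice were pooled for the mutant cells. The labels say only Wild type for the control, which the study describes as tamoxifen-injected animals with intact *Taf4* and the same Cre. Isolated islets were cultured for a day and dissociated, live cells were sorted, and RNA was captured by its 3′ end with the 10X Genomics Chromium system. Animal, genotype and library cannot be told apart with 1 library per condition.

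*Ddit3* encodes CHOP, a transcription factor made when the endoplasmic reticulum (ER) is overloaded with unfolded protein or when other stresses phosphorylate the translation factor eIF2α and raise ATF4. The wider unfolded protein response also raises ER chaperones, among them BiP, the product of *Hspa5*, through ATF6 and XBP1. Beta cells make insulin precursor in large amounts and depend on ER folding capacity, and prolonged CHOP activity in them is known to favour cell death.

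Each 1-week mutant cell kept here was deeply sampled. The *Ddit3*-high cells held between 8084 and 58863 UMIs (median 22428) and the comparison cells between 8115 and 94086 (median 27894), 3852754 and 10702518 UMIs in sum. Detected genes ran from 1916 to 5983 per *Ddit3*-high cell, and 164 of 164 exceeded the 1500 detected genes that the methods give as an upper limit of the Seurat analysis, as did 328 of 336 comparison cells. The study nevertheless gives 2295 cells as analysed at 1 week, the number of all barcodes in this library. By that count the limit did not leave these cells out. The library labelled WT held 17357 *Xist* UMIs and none from 4 Y-linked genes, although the methods name a male WT mouse, so it is called the library labelled WT below. In the *Ddit3*-high cells 161 of 164 held a Y-linked UMI. The 1-week table shared 5 barcodes with the 5-week table and 2 with the WT table; 1 of the 164 cells was among them. No doublet caller was run, and the authors state doublet removal for the WT library only. The rule left out 166 further barcodes at the *Ddit3* threshold for depth and 22 for *Ins2* under 5%.

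Around the threshold the cells formed no gap. The lowest *Ddit3* shares inside were 0.254%, 0.257% and 0.257% of UMIs, and the highest outside were 0.249%, 0.248% and 0.248%. Raised to 0.4%, the threshold left 87 cells, and lowered to 0.15% it took 266. The plot of *Ddit3* against *Ins1* shows the cells as the upper end of a continuous spread.

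**Figure D1:**
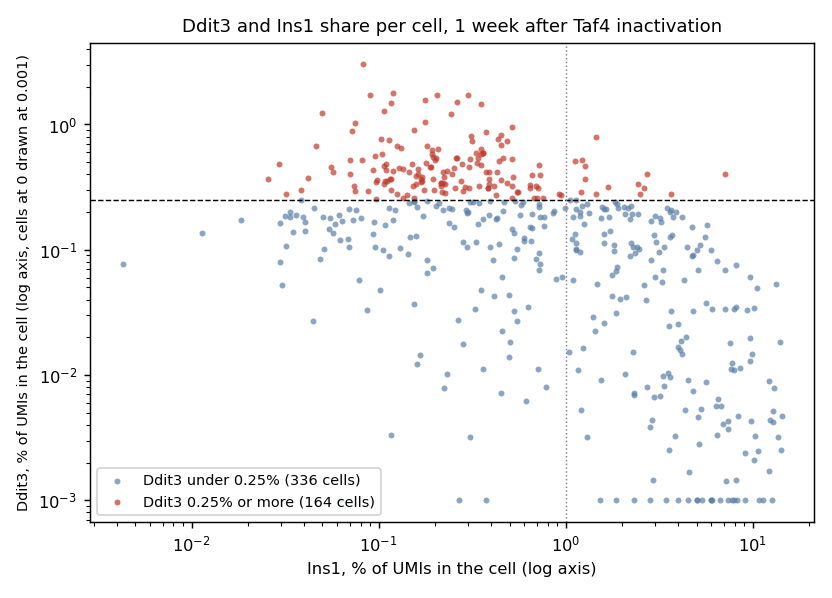
*Ddit3* and *Ins1* as percent of UMIs in each of the 500 cells that met the limits, both on log axes, with the 164 *Ddit3*-high cells in red, the 336 comparison cells in blue, the *Ddit3* threshold as a dashed line and 1% *Ins1* as a dotted line. Most red points (150 of 164) lie left of the dotted line, against 142 of 336 blue points.

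The label beta cell was checked against marker lists. All 12 genes of the beta list were detected, with a summed level of 256932 counts per 1000000 UMIs (CPM) and no cell under 62034 CPM. Alpha markers summed to 581 CPM with 10 of 11 detected, delta markers to 121 CPM, and PP markers to 262 CPM with a highest cell at 7767 CPM. In the comparison cells the same lists summed to 495772, 576, 89.8 and 315 CPM. Ductal markers summed to 623 CPM, above the alpha list, with UMIs in 163 of 164 cells and a highest cell of 11550.5 CPM, against 269 CPM in the comparison cells, and *Muc1* was at 0; their part in the results was not tested. Endothelial, lymphocyte, macrophage and acinar lists summed to between 3.89 and 8.31 CPM in the *Ddit3*-high cells, with *Cd74*, *Adgre1*, *Csf1r*, *Cdh5*, *Pecam1*, *Pnlip* and *Cel* at 0, and 0 of 7 mesenchymal markers had a UMI. A floor was taken from 167 cells of the same library with *Gcg* at 2% or more and *Ins2* under 5% (median 22463 UMIs). These held *Ins2* at 4259 CPM, *Ins1* at 311 CPM, *Mafa* at 8.65 CPM, *Pdx1* at 5.41 CPM and *G6pc2* at 0.541 CPM. Whether these UMIs were free RNA, doublets or RNA of the cells themselves was not tested. The summed levels of these genes in the *Ddit3*-high cells lay above those values, but single cells fell below, with *Ins1* as low as 256 CPM.

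*Ins1* and *Ins2*, which encode both mouse insulins, together took 23.5% of UMIs in the *Ddit3*-high cells and 45.5% in the comparison cells. Since shares of UMIs must add up, the other genes then took more: over 8092 genes with 100 or more UMIs in the sets together, the median log2 ratio of summed CPM, *Ddit3*-high over comparison, was 0.51, and 86.6% of genes lay above 0. By a log2 ratio of 1 or more, 686 genes were higher (8.48% of those compared), and by -1 or less 83 were lower (1.03%). Centred on the median, 83 genes were higher (1.03%) and 278 lower (3.44%), so the split turned from mostly higher to mostly lower. Leaving out the 25 deepest cells, all of them comparison cells with *Ins1* at 1% or more, gave 399 higher and 90 lower. Each log2 ratio below should be read against 0.51, and parentheses after a ratio or level give an exact 95% interval that covers counting error only.

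A closer comparison was made with cells of like insulin content, chosen after seeing the data. With *Ins1* under 1% of UMIs, 150 *Ddit3*-high cells and 142 comparison cells remained, and insulin took 21.3% and 23.1% of UMIs. Genes detected per cell after thinning every cell to 8000 UMIs had medians of 2653 and 2664. Over 6596 genes the median log2 ratio was then 0.08, with 76 genes higher (1.15%) and 88 lower (1.33%). Of the 76, 75 were also higher against all comparison cells, and of the 88, 38 were also lower. Values from this narrower comparison are called matched for *Ins1* below. Its 142 comparison cells differed from the 194 with *Ins1* at 1% or more in stress genes too. Summed *Ddit3* was at 1336 against 597 CPM, *Nupr1* at 2049 against 554, *Hspa5* at 1374 against 550 and *Trib3* at 144 against 43.3. A matched ratio thus also sets the cells against others of higher *Ddit3*, and the part of each in a smaller ratio was not tested.

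The cells are named for 4 marker genes. *Ddit3* (chromosome 10 from 127290793 to 127296291 in GRCm38.p6) had a lowest cell of 2545 CPM, a median of 4150.3 and a highest of 30128, against 0, 827 and 2490.5 in the comparison cells; that the sets do not overlap is the rule itself. *Hspa5* (chromosome 2 from 34772090 to 34776529), encoding BiP, ranged from 278 CPM to 62174 around a median of 2705, against 0 to 18656 around 640.2. Only 5.06% of comparison cells reached the *Ddit3*-high median, yet the ranges overlapped widely. The summed *Hspa5* level was 3505 CPM (3446 to 3564) against 815 (798 to 832), a log2 ratio of 2.10 (2.07 to 2.14), and 1.45 matched for *Ins1*.

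*Nupr1* (chromosome 7 from 126623246 to 126625470), which encodes a small stress-induced nuclear protein, was uneven among the cells. It was at 0 in 8 of the 164, had a median of 2372 CPM and reached 24553, while the comparison cells had a median of 155 and reached 11179. The *Nupr1* ratio of summed levels was 1.88 (1.84 to 1.91) on the log2 scale and 0.88 matched for *Ins1*, under the limit of 1. *Mt2* (chromosome 8 from 94172618 to 94173567), encoding a metallothionein that binds zinc and copper, had a median of 3339 CPM with cells from 0 to 11143, against a median of 996 and cells from 0 to 12852.5. The highest *Mt2* cell was thus a comparison cell, and the log2 ratio of 1.30 (1.27 to 1.33) became 0.90 matched for *Ins1*.

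**Figure D2:**
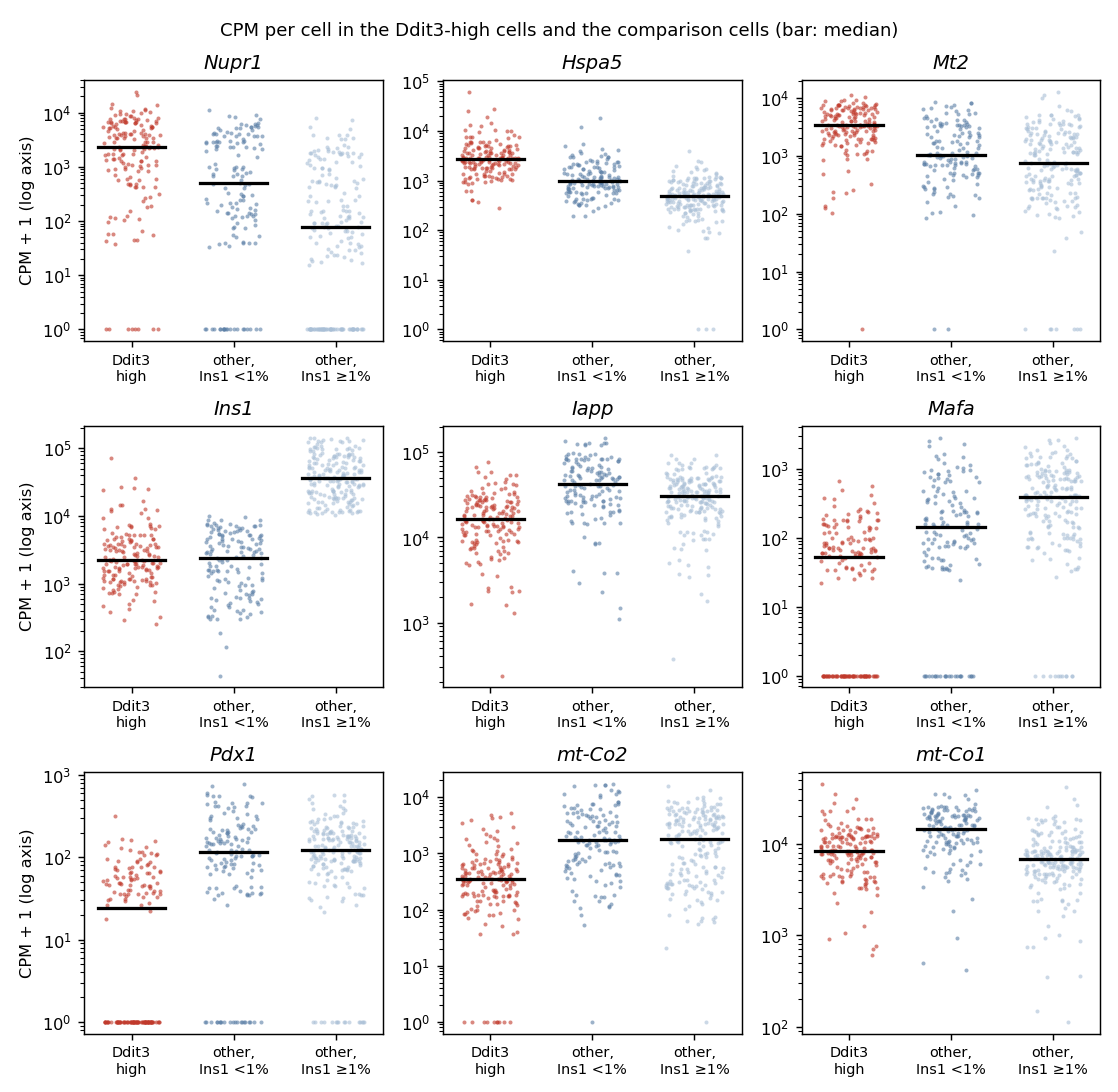
CPM plus 1 on a log axis for 9 genes, each point 1 cell, with black bars at the median: the 164 *Ddit3*-high cells, the 142 comparison cells with *Ins1* under 1% of UMIs and the 194 with 1% or more. *Nupr1*, *Hspa5* and *Mt2* have their highest medians in the first column, *Mafa*, *Pdx1*, *Iapp* and mt-Co2 their lowest, and *Ins1* is alike in the first and second columns.

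The promoters of these genes are shown with their matches to known stress elements. Each is the 250 bases before the RefSeq gene start in GRCm38.p6, written 5′ to 3′ on the gene's strand, with motif matches in capitals. The motifs searched on both strands were the ER stress element bound by NF-Y and ATF6, the composite element TGATGNAAT bound by ATF4 with C/EBP factors, the metal response element TGCACNC or TGCGCNC bound by MTF1, and the heat shock element bound by HSF1. *Hspa5* (chr2:34771840-34772089, + strand) has 1 ER stress element at -65 to -47 from the gene start. *Nupr1* (chr7:126625471-126625720, - strand) has 1 composite element on the opposite strand at -111 to -103. *Mt2* (chr8:94172368-94172617, + strand) has 3 metal response elements, the nearest at -50 to -44. *Ddit3* (chr10:127290543-127290792, + strand) has 1 such match at -249 to -243 and no exact match to the ER stress or composite element in this window. Only exact matches were counted. The *Ddit3* sequence holds a stretch on the opposite strand that differs from the ER stress element in 1 base, so its absence here is not shown.
Hspa5: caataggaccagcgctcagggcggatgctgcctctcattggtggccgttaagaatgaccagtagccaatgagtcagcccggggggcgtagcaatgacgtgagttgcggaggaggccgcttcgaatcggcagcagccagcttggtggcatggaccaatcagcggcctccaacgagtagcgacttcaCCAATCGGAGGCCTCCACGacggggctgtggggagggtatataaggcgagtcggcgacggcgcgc
Nupr1: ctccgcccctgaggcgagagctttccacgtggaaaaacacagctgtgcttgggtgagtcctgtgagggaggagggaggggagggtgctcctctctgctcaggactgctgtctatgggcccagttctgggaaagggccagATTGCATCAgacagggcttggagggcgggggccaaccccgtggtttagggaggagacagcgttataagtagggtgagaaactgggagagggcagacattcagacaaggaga
Mt2: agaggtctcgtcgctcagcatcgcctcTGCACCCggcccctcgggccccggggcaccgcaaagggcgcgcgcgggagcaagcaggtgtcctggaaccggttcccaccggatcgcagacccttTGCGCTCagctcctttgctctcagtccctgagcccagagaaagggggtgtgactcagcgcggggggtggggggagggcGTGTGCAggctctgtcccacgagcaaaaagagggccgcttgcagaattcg
Ddit3: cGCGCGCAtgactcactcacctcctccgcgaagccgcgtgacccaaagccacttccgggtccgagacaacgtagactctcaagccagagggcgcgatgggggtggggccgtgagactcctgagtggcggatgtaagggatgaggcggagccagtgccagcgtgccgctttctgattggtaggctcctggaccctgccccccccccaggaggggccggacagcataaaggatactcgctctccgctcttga

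A match is a description of letters only. The ER stress element was found before 35 of 27025 genes (0.13%), the composite element before 0.91%, the heat shock element before 0.514% and the metal response element before 23.8%. Among the ER chaperone list, 7 of 19 promoters had the ER stress element, those of *Hspa5*, *Hsp90b1*, *Calr*, *Canx*, *Pdia6*, *Dnajc3* and *Creld2*. Among genes higher in the *Ddit3*-high cells it was found before 2 of 549, and among genes lower before 0 of 53. The heat shock element was before 0 of 7 promoters of the cytosolic heat shock list, 0.546% of genes higher and 0.495% of all genes compared. The metal response element was before 34.1% of the genes higher, 37.7% of those lower and 36.6% of all genes compared.

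Genes of the integrated stress response, the programme downstream of eIF2α and ATF4, were measured as 1 list. Of 27 list genes compared besides *Ddit3*, 7 were higher and 0 lower, with a median log2 ratio of 0.55, close to the 0.51 of all genes. *Atf3*, an ATF4-induced transcription factor, had the highest ratio of the 8092 genes at 3.30 (2.86 to 3.75), from 198 UMIs against 56. Its median cell was nevertheless at 0 in both sets. Its summed level was 51.4 CPM (44.5 to 59.1) against 5.23 in the comparison cells. Beta cells at 5 weeks with 8000 or more UMIs held *Atf3* at 59.2 CPM. The 167 cells at 1 week with *Gcg* at 2% or more held it at 40.03 CPM. Beta cells of the library labelled WT with 2000 or more UMIs held it at 21.96 CPM. The high *Atf3* ratio thus refers to the comparison cells, not to beta cells at 5 weeks. *Ppp1r15a*, encoding GADD34, which directs dephosphorylation of eIF2α, had a median cell of 160 CPM (highest 2492) against 34.8 (highest 1356), and a ratio of 1.90 (1.75 to 2.06). *Atf4* itself had medians of 449 and 212 CPM and a ratio of 1.24 (1.15 to 1.33).

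Matched for *Ins1*, 2 of 26 genes of this list stayed past the limit, *Atf3* at 2.31 and *Ppp1r15a* at 1.12, and the list median was 0.08. *Trib3*, a pseudokinase induced by CHOP, had a ratio of 0.90 (0.74 to 1.06) against all comparison cells and of 0.01 (-0.17 to 0.20) matched for *Ins1*. Other ATF4 targets had lower ratios: *Psat1* of serine synthesis had a ratio of -0.50 (-1.19 to 0.15), *Asns* of asparagine synthesis 0.49, *Slc7a5* of amino acid uptake 0.15, and *Chac1*, a glutathione-degrading enzyme, 0.30. Among 19 aminoacyl-tRNA synthetase genes 3 were higher, with a median of 0.64. *Sars* and *Yars* both had a ratio of 1.06, and *Gars* (0.25) and *Wars* (-0.01) had the lowest.

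Among 24 ER chaperone and folding genes, 3 were higher and 1 lower, with a median of 0.57. *Hspa5* at 2.10 stood apart from the next, *Ero1l*, an oxidase that forms disulphide bonds, at 1.20 (1.02 to 1.38), and *Dnajb9*, a BiP co-chaperone, at 1.13 (1.02 to 1.23). The large ER chaperones lay closer to all genes: *Hsp90b1* had a ratio of 0.75 (0.69 to 0.81) and *Calr* of 0.56 (0.49 to 0.63), although both share the ER stress element with *Hspa5*. *Ero1lb*, the oxidase typical of beta cells, was the gene that was lower, at -1.02 (-1.13 to -0.91), and *Ppib*, a proline isomerase, was at -0.10. Matched for *Ins1*, *Hspa5* alone of the 24 passed the limit and the median was 0.12.

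Of 16 genes for ER-associated degradation 3 were higher, beside 8.48% of all genes compared: *Ubxn4* at 1.39 (1.29 to 1.49), *Derl1* at 1.21 and *Ube2j1* at 1.12. *Herpud1*, which helps hand misfolded proteins to the ubiquitin ligase, had median cells of 494 and 295 CPM and a ratio of 0.97 (0.89 to 1.04), while *Edem2*, a mannose-trimming protein, was lowest at -0.72. None of the 7 ER stress sensors passed the limit, from *Creb3l1* at -0.64 to *Ern1*, encoding IRE1, at 0.87, and none of 26 genes for ER translocation and early transport did (median 0.46). Matched for *Ins1*, 0 of 14 genes for ER-associated degradation were higher and 1 was lower, with a median of 0.34.

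Metal and oxidative stress lists had medians above that of all genes. Of 5 metallothionein and zinc transporter genes 2 were higher, with a median of 0.96, and 0 of 4 passed matched for *Ins1*. *Mt1* had medians of 8818 and 4094 CPM and a log2 ratio of 0.96 (0.94 to 0.98). Of 20 antioxidant genes 8 were higher and 0 lower, with a median of 0.95, and 3 of 19 passed matched for *Ins1* (median 0.38). *Srxn1*, which repairs oxidised peroxiredoxins, had a ratio of 2.14 (1.98 to 2.30), *Nqo1*, a quinone reductase, 2.02 (1.66 to 2.39), and *Hmox1*, which breaks down haem, 1.94 (1.78 to 2.11). All 3 are known targets of the oxidative stress factor NRF2, and all 3 passed matched for *Ins1*. *Hmox1* was nevertheless as high in single comparison cells, with a highest cell of 2033 CPM against 1762. *Ftl1*, the ferritin light chain that stores iron, was abundant throughout, with medians of 16555 and 5748 CPM and a ratio of 1.52 (1.51 to 1.54). *Sod2*, the mitochondrial superoxide dismutase, was at 0.23 and *Txnip*, which binds thioredoxin, at 0.05.

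Of 14 p53 target genes 7 were higher and 0 lower, with a median of 1.01. *Gadd45a*, a DNA damage-inducible gene that ATF4 and CHOP can also raise, had median cells of 83.0 and 19.9 CPM and a ratio of 2.36 (2.18 to 2.53). *Bbc3*, encoding the cell death protein PUMA, had median cells of 69.6 and 0 CPM and a ratio of 1.65 (1.41 to 1.88). Both passed matched for *Ins1* (1.81 and 1.06), with *Trp53inp1* as the third of 13. *Cdkn1a*, the p21 cell cycle inhibitor, had a ratio of 0.80 (0.69 to 0.90), with medians of 177 and 103 CPM, and its highest cell (3297 CPM) was a comparison cell. In the BCL2 family *Bbc3* was the 1 gene of 7 that was higher; *Mcl1*, which protects from cell death, lay just under the limit and *Bad* at 0.11.

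Immediate early genes went both ways: of 10 compared, 6 were higher and 3 lower. *Jun*, a subunit of the AP-1 factor, had a median cell of 112 CPM (highest 3073) against 0 (highest 767) and a ratio of 2.30 (2.12 to 2.48). Its summed level was 184 CPM against 37.3 in the comparison cells. Beta cells of the library labelled WT with 2000 or more UMIs held *Jun* at 198 CPM, and those at 5 weeks with 8000 or more at 502. *Egr1*, *Fos* and *Ier2*, which many cells switch on within minutes of a stimulus, were lower. *Egr1* had 1 UMI in 1 of 164 cells against 241 UMIs in 53 of 336, a ratio of -6.44 (-11.75 to -3.95), and *Fos* 19 UMIs in 11 cells against 173 in 44, a ratio of -1.71 (-2.48 to -1.03). These 2 genes were at 0 in most cells of both sets.

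The highest ratios by rank belonged mostly to genes of low level. After *Atf3* came *Areg*, encoding the growth factor amphiregulin, at 3.25 (2.65 to 3.89), then 8430408G22Rik, and *Defb1*, a defensin, at 2.96, and *Rhou*, a small GTPase, at 2.93. *Entpd2*, an enzyme that splits extracellular ATP, followed at 2.82, *Elovl7*, a fatty acid elongase, at 2.66, and *Tnfrsf12a*, the TWEAK receptor, at 2.53. *Stbd1*, which binds glycogen, was at 2.45, Fam221a at 2.42, and *Ugt2b34*, a glucuronosyltransferase, at 2.36. None of the 12 was detected in more than 133 of the 164 cells. *Areg* had UMIs in 30 of 164 cells, 28.2% of them in 1 cell, and 39.1% of 8430408G22Rik UMIs came from 1 cell, whereas *Stbd1* was found in 133 cells with at most 3.57% from any. All 12 of these, *Gadd45a* included, also passed matched for *Ins1*.

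**Figure D3:**
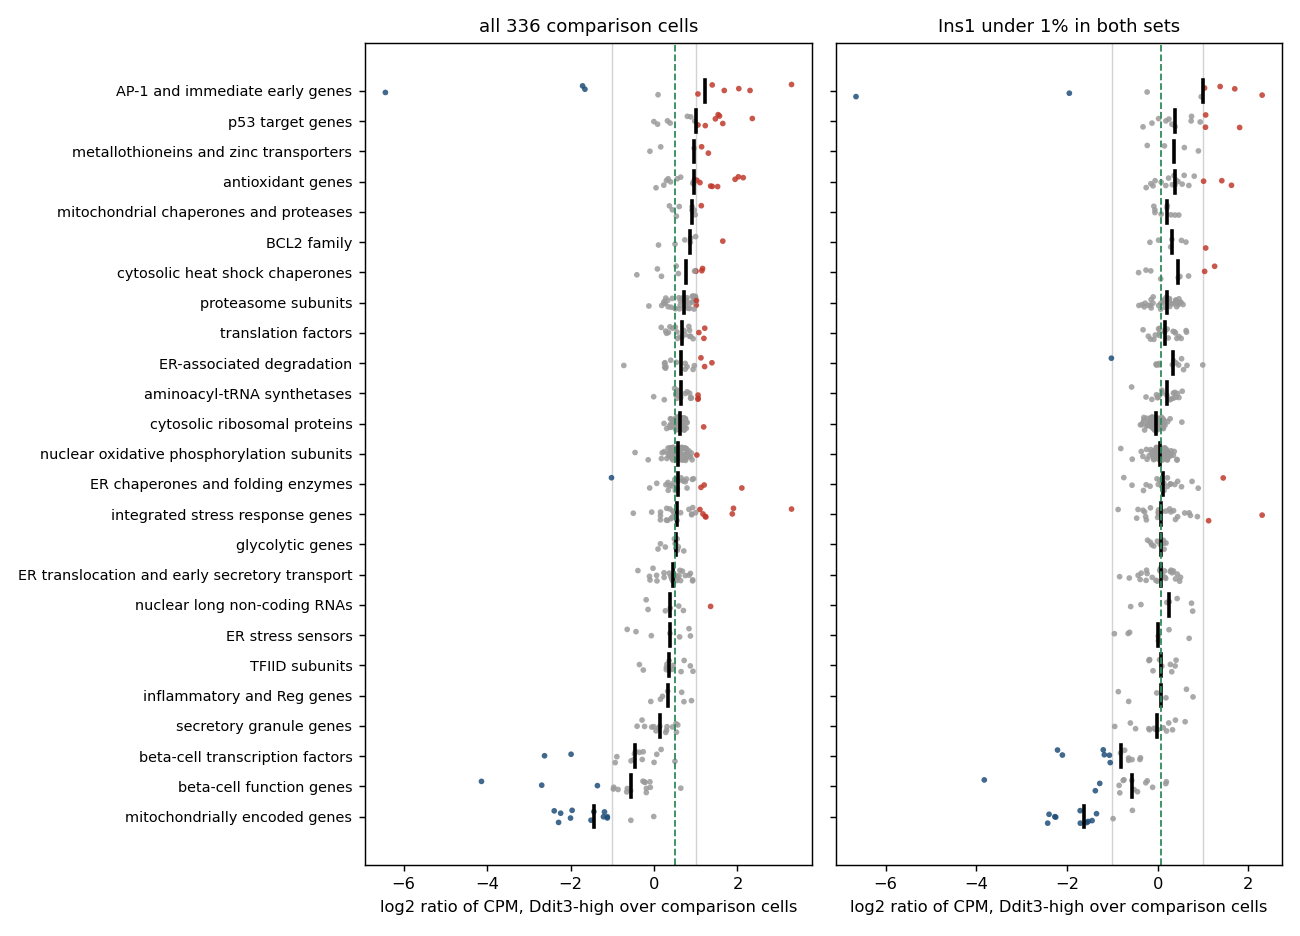
Log2 ratios of summed CPM, *Ddit3*-high over comparison cells, for the genes of 25 lists (points, red at 1 or more, dark blue at -1 or less, grey between), with list medians as black bars and the median of all genes compared as a green dashed line. The left panel uses all 336 comparison cells (median 0.51) and the right panel cells with *Ins1* under 1% of UMIs in both sets (median 0.08), where mitochondrially encoded genes and beta-cell transcription factors have the medians furthest to the left.

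Levels of several genes of the mature beta cell were lower, insulin first. *Ins1* (chromosome 19 from 52264297 to 52265015) had cells from 256 to 70571 CPM with a median of 2222, against 42.8 to 142117 with a median of 15348.5, a log2 ratio of -2.69. *Ins2* had a median of 183526 CPM against 387858, a ratio of -0.86. Matched for *Ins1*, these ratios were -0.26 and -0.11, which the matching itself fixes in part. *Iapp*, the amyloid peptide secreted with insulin, had a median of 16656 CPM against 34543 and a ratio of -0.96 (-0.98 to -0.95), and the difference was larger matched for *Ins1*, -1.37 (-1.39 to -1.36).

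Of 15 beta-cell transcription factors 2 were lower, 0 were higher and 15 lay below the median of all genes. *Mafa*, which activates insulin transcription in mature beta cells, had a median cell of 50.5 CPM (highest 668) against 245 (highest 2780). Its summed level was 83.3 CPM (74.5 to 92.9) against 514, a ratio of -2.62 (-2.79 to -2.46). *Pdx1*, required to keep beta-cell identity, had median cells of 23.2 and 117 CPM and a ratio of -1.99 (-2.25 to -1.74). Its summed level was 37.1 CPM (31.3 to 43.7) against 147 in the comparison cells. Beta cells of the library labelled WT with 2000 or more UMIs held *Pdx1* at 32.5 CPM (28.8 to 36.5) and *Mafa* at 127. Those at 5 weeks with 8000 or more UMIs held them at 75.8 and 211 CPM. Lower thus refers to the comparison cells, not to the library labelled WT. After thinning to 8000 UMIs a *Mafa* UMI was found in 60 of 164 cells against 256 of 336, and a *Pdx1* UMI in 37 against 196. Matched for *Ins1*, 6 of 13 factors were lower: *Pdx1* at -2.21 (-2.51 to -1.92), *Mafa* at -2.10 (-2.29 to -1.91), *Pax6* at -1.20, *Mlxipl*, encoding ChREBP, at -1.18, *St18* at -1.06 and *Isl1* at -1.05. *Nkx6-1* (-0.56) and *Rfx6* (-0.38) were not.

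Of 17 beta-cell function genes 3 were lower and 0 higher, with a median of -0.56. *G6pc2*, the islet glucose-6-phosphatase that sets the threshold for insulin secretion, had 26 UMIs in 19 of the 164 cells against 1270 in 212 of 336. Its level of 6.75 CPM (4.41 to 9.89) gave a ratio of -4.14 (-4.76 to -3.58), and -3.82 (-4.63 to -3.11) matched for *Ins1*. *Ucn3*, a peptide of mature beta cells, was at -1.36 (-1.72 to -1.01) and the glucose transporter gene *Slc2a2* at -0.97 (-1.39 to -0.58). *Kcnj11*, a subunit of the ATP-sensitive potassium channel, had the highest ratio of the list, 0.64, and *Prss53* was at -0.09. Secretory granule genes kept closer to all genes: 0 of 15 passed either limit, from *Pcsk1*, an insulin-processing protease, at -0.41 to *Cpe*, another, at 0.57.

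Among genes with 3 or more UMIs in each set, which leaves out *Egr1*, the 12 lowest ratios by rank held *G6pc2*, *Ins1*, *Mafa*, 3 mitochondrially encoded genes and 6 others. *Esr1*, the oestrogen receptor, had 8 UMIs in 4 cells against 547 in 158, a ratio of -4.62 (-5.84 to -3.63), with 62.5% of the 8 in 1 cell. *Ffar1*, the fatty acid receptor GPR40 that augments insulin secretion, had 14 against 259 UMIs, a ratio of -2.74. *Slitrk6*, a transmembrane protein gene, had 4 UMIs against 102, a ratio of -3.20 (-5.10 to -1.80). *Mrln* (-2.98), *C2cd4b* (-2.72) and Gm27033 (-2.26) were the rest.

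Mitochondrially encoded transcripts were lower although the share of all of them was used only as an upper limit. The cells held a median of 1.53% of UMIs from these genes (0.129% to 10.4%), the comparison cells 2.87%. Of 13 genes 11 were lower and 0 higher, with a median of -1.44, and 10 of 12 were lower matched for *Ins1*. mt-Nd6 (-2.39), mt-Nd3 (-2.29) and mt-Co2 (-2.24), parts of complexes I and IV, had the lowest ratios, and mt-Nd5 was at -0.56. mt-Co1, from the same genome and complex as mt-Co2, was at -0.01 (-0.02 to 0.01) with medians of 8416 and 8655 CPM, while mt-Co2 had medians of 343 and 1760 CPM. Matched for *Ins1*, mt-Co1 was at -0.56 and mt-Co2 at -2.25. Of 73 nuclear genes for the same respiratory complexes 1 was higher (*Atp5s*, 1.03) and 0 lower, with a median of 0.58, from *Ndufa4* at -0.45 upwards.

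Protein synthesis and turnover lists had medians from 0.62 to 0.91, above the 0.51 of all genes. Their counts of genes higher stand beside 8.48% over all genes compared. Cytosolic ribosomal proteins had a median ratio of 0.62 with 1 of 82 higher, *Rps27l* at 1.19, which is also a p53 target, and their median was -0.05 matched for *Ins1*. They took a median of 10.1% of UMIs per cell, 6.86% in all comparison cells and 11.1% in those with *Ins1* under 1%. Translation factors had a median of 0.66 with 3 of 21 higher, led by *Eif1*, which selects the start codon, at 1.22 (1.18 to 1.25) and *Eif2s1*, encoding eIF2α, at 1.20. Proteasome subunits had a median of 0.71 with 2 of 37 higher, and mitochondrial chaperones and proteases a median of 0.91 with 1 of 9 higher, *Dnaja3* at 1.13. Of 10 cytosolic heat shock genes 3 were higher, *Dnajb1* at 1.16, *Hsp90aa1* at 1.15 and *Hspa1a* at 1.00, but 86.8% of the *Hspa1a* UMIs came from 1 cell. Matched for *Ins1*, 0 of 21 translation factors, 0 of 37 proteasome subunits and 0 of 9 mitochondrial chaperones and proteases were higher. Their medians were 0.16, 0.21 and 0.21, against 0.08 for all genes. Of 9 heat shock genes 2 were higher in that comparison.

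Over the 500 cells, levels were compared over 5 steps of *Ddit3*. Cells were placed in bins by *Ddit3* share: 140 under 0.05% of UMIs, 45 from 0.05% to 0.1%, 151 from 0.1% to 0.25%, and the *Ddit3*-high cells as 109 from 0.25% to 0.5% and 55 at 0.5% and over. *Hspa5* was higher in each successive bin, from 408 CPM (391 to 426) in the first bin to 5263 (5139 to 5389) in the last. *Nupr1* was at 66.3 CPM in the first bin, 3712 from 0.25% to 0.5% and 3954 at 0.5% and over, although its median cell was lower in the last bin than in the one before (1733 against 2476 CPM). *Mt2* was higher in the last bin but one than in the last, 4050.5 CPM (3973 to 4129) against 3673 (3570 to 3778), and *Trib3* likewise, 155 CPM (140 to 171) against 115 (97.0 to 134). *Atf3* was at 0.791, 2.86, 11.3, 29.9 and 93.2 CPM in order.

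Summed levels of several beta-cell genes stepped down over the same bins, but not of all. *Slc2a2* was at 34.2, 42.1, 23.8, 13.8 and 19.9 CPM in order, and *Nkx6-1* at 248, 263, 227, 222 and 153 CPM. *Ins1* was at 58787, 29508, 13471, 7037 and 3164 CPM, *Mafa* at 745, 484, 248, 104 and 42.8 CPM, and *G6pc2* at 193, 87.1, 41.0, 7.86 and 4.58 CPM. *Ins2* was at 502812 CPM in the first bin and 202415 in the last, and *Iapp* at 44764 and 13442. mt-Co2 went from 4219 CPM to 364, whereas mt-Co1 was at 8252, 10614, 10648, 10044 and 8339 CPM, with no step of one direction. Within the *Ddit3*-high cells alone, the median cell of *Ins1* was nearly alike in the lower and upper bin, at 2242 and 2067 CPM. The highest *Ins1* cells were at 70571 and 14441 CPM. *Mafa* had median cells of 63.9 and 0 CPM and *Pdx1* of 34.5 and 0. Counting intervals of the summed levels did not overlap for *Ins1*, *Mafa* and *Pdx1*. They did for *G6pc2*, with 20 UMIs (4.80 to 12.1 CPM) and 6 UMIs (1.68 to 9.97 CPM). These intervals do not measure the spread among cells.

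**Figure D4:**
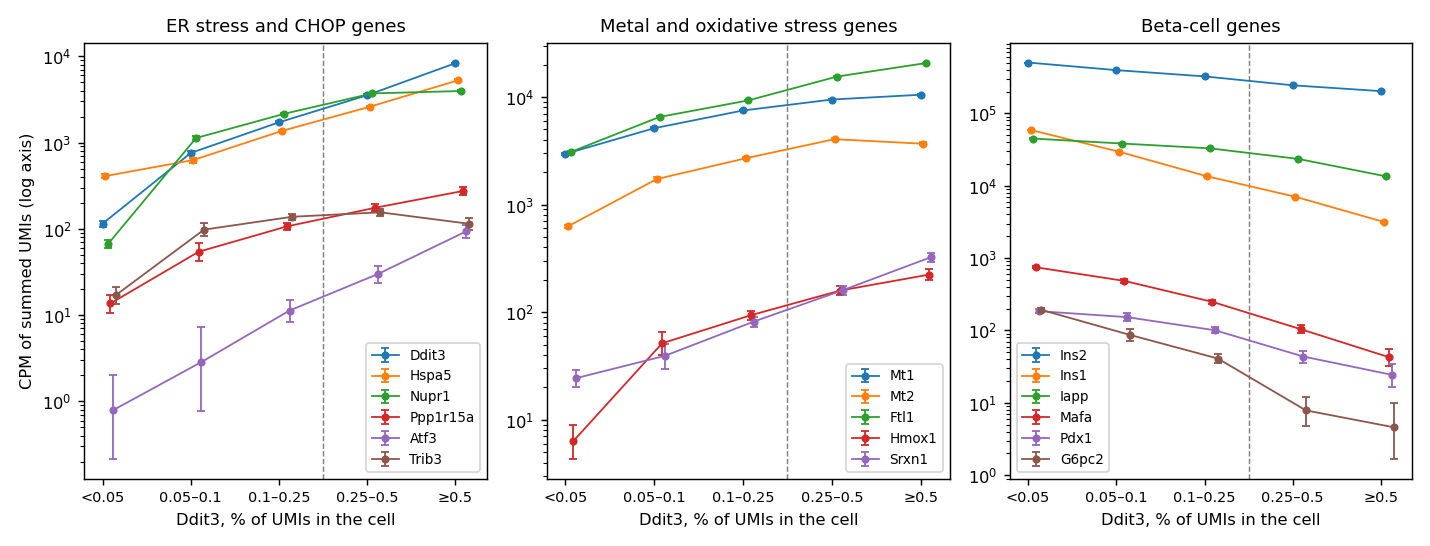
Level in CPM of summed UMIs on log axes in 5 bins of cells by *Ddit3* share (140, 45, 151, 109 and 55 cells), with exact 95% Poisson intervals for counting error as bars and the *Ddit3* threshold as a dashed line. *Hspa5* and *Atf3* climb through the last bin, *Trib3* and *Mt2* do not, and *Ins1*, *Mafa*, *Pdx1* and *G6pc2* are lower in each successive bin.

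After thinning each of the 500 cells to 8000 UMIs, the genes most like *Ddit3* across cells by Spearman's rank correlation were *Eif1* (0.81), *Ftl1* (0.78), *Hspa5* (0.78), *Actg1* (0.76), *Actb* (0.71), *Btf3* (0.69), *Krtcap2* (0.62), *Eif5* (0.62), *Jund* (0.62) and *Pgrmc1* (0.61). *Actg1* and *Actb* encode cytoplasmic actins and *Btf3* a subunit of the nascent polypeptide complex. The least like were mt-Co2 (-0.61), *Mafa* (-0.59), *Ins1* (-0.58) and *Ins2* (-0.55). Part of this is shared by construction, since all cells lie in 1 library and a share of insulin displaces the rest.

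Over all 500 cells *Nupr1* and *Mt2* had correlations with *Ddit3* of 0.60 and 0.61, and over the comparison cells of 0.64 and 0.58. Within the 164 *Ddit3*-high cells, where the rule itself cuts the range of *Ddit3*, *Hspa5* went with *Ddit3* (correlation 0.49) and with the ER genes *Selenok* (0.47), *Calr* (0.47) and *Hsp90b1* (0.45). *Nupr1* and *Mt2* had correlations with *Ddit3* of -0.06 and -0.08 there, and *Nupr1* had a correlation of 0.11 with *Hspa5* and 0.16 with *Mt2*. *Mt2* went with *Mt1* (0.74) and next with *Hmox1* (0.31). *Cdkn1a* was the gene least like *Nupr1* (-0.30), and *Iapp* the one least like *Ddit3* (-0.37). *Ins1* went with *Ins2* (0.69) and against ribosomal protein genes such as *Rpl41* (-0.51). These are descriptions over cells of 1 library.

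**Figure D5:**
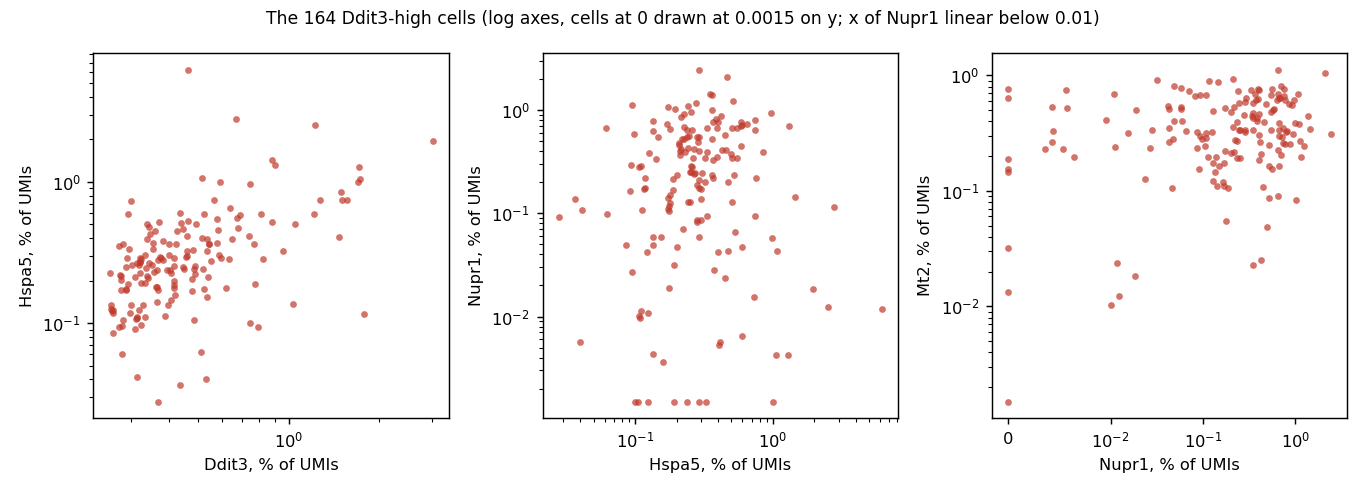
The 164 *Ddit3*-high cells, each point 1 cell, as percent of UMIs on log axes (the *Nupr1* axis is linear under 0.01, and cells at 0 are drawn at the foot of the vertical axes): *Hspa5* against *Ddit3*, *Nupr1* against *Hspa5* and *Mt2* against *Nupr1*. The left panel slopes upward (correlation 0.49 after thinning), and the middle and right panels spread with little slope (0.11 and 0.16).

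The targeted gene was near the detection limit. *Taf4* (chromosome 2 from 179912146 to 179976646) had 24 UMIs in the *Ddit3*-high cells, 6.23 CPM (3.99 to 9.27), and 85 in the comparison cells, 7.94 CPM (6.34 to 9.82), a log2 ratio of -0.35 (-1.07 to 0.32) whose interval includes 0. Matched for *Ins1* it was -1.14 (-1.96 to -0.37), but from 21 and 47 UMIs, under the minimum of 100 set for that comparison. *Taf4* in beta cells of the library labelled WT with 2000 or more UMIs was at 5.14 CPM (3.73 to 6.90). At 5 weeks it was at 3.52 CPM (2.82 to 4.35) with that limit and at 3.67 (2.61 to 5.02) with 8000 or more UMIs. Which exons are floxed is not given in the sources used here, so a 3′ tag may lie outside the deleted part and does not show which cells had recombined. Of 13 TFIID subunits compared 0 passed either limit, with *Taf12* highest at 0.93, *Taf10* at 0.87 and *Tbp* at -0.26.

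The same rule found no cell in the other libraries. At 5 weeks 1010 cells met the limits and 0 reached the *Ddit3* threshold, which allows a share of up to 0.297% by 3 counts of the total and of 0.365% by the exact 95% interval, and the highest cell held 0.113% of UMIs. Only 3 cells of the library labelled WT reached 8000 UMIs with the other limits, too few to set against the rest. With the depth limit lowered to 2000 UMIs, 0 of 2982 WT cells, 181 of 586 cells at 1 week and 16 of 4336 cells at 5 weeks were at the threshold. Thinning each of these cells to 2000 UMIs gave 0, 208 (35.5%, 31.6 to 39.5) and 27 (0.623%, 0.411 to 0.905). The share at 1 week was thus no smaller at equal depth.

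The 16 cells at 5 weeks (median 2464.5 UMIs) resembled the 1-week cells in *Hspa5* but not in the other markers. Their summed *Hspa5* was 3769 CPM (3208 to 4401), against 3505 in the *Ddit3*-high cells at 1 week. *Nupr1* had 1 UMI in all 16, 23.6 CPM (0.596 to 131) against 3794, and *Mt2* had 10 UMIs, 236 CPM (113 to 433) against 3922. *Herpud1* was at 1885 CPM (1494 to 2346) against 567. All beta cells at 5 weeks with 8000 or more UMIs held *Nupr1* at 38.1 CPM and *Mt2* at 137 CPM, below the 1-week comparison cells at 1034 and 1590.3 CPM, and the libraries were prepared separately from different animals.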

How the data were processed

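Islet cells were measured by 10X Genomics 3′ single-cell RNA-seq in 1 library each of WT, Taf4 mutant 1 week and Taf4 mutant 5 weeks. The authors sorted live cells, aligned reads to mm10 and counted UMIs with Cell Ranger 3.1 (bcl2fastq 2.17.1.14 and Seurat 3.1.4 are also in the submitters' processing notes), and the deposited values are raw counts per gene and barcode. Whether introns or strand were counted is not given in the sources used here. The authors removed doublets from the WT library only and scaled it down to 12000 cells.

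Cells were chosen by the limits given in the report. UMIs were summed over each set and scaled to CPM, and log2 ratios were taken for genes with 100 or more UMIs in the sets together, without *Ddit3*. Genes were called past a log2 ratio of 1 or -1. Exact conditional, Poisson and binomial intervals (Python 3.11.15, scipy 1.17.1, numpy 2.4.6) cover counting error only, and UMI sums treat cells as a pool. Cells are not replicates, so no test was made. The script was tested on simulated data. Genes named were the 4 markers, the 12 highest and 12 lowest ratios among genes with 3 or more UMIs in each set, the 2 highest and 2 lowest per list, genes listed in advance and the 10 most like *Ddit3*; others were named after their values were seen, as were *Calr*, *Hsp90b1*, *Dnajb9*, *Hmox1*, *Asns*, *Chac1* and *Egr1*. The cells, gene lists and rules were chosen with earlier results of these data known. Promoters came from RefSeq (GRCm38.p6), and 6466 of 8092 genes matched by symbol. Results for some list genes are not reported here.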

Additional observations from a re-analysis of the deposited data

How the results depend on the processing

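The count of *Ddit3*-high cells moved with the *Ddit3* threshold, to 266 at 0.15% and 87 at 0.4% from 164, and by less under the other limits on cells. The count of genes higher, 686, became 1173 at a threshold of 0.15%, 399 without the deepest 5% of cells, 434 with the mean of each cell's CPM, 350 after thinning to 8000 UMIs, 93 with totals without *Ins1* and *Ins2*, 83 centred on the median and 2773 with no minimum of UMIs per gene. Further alternatives were chosen after seeing the data: *Ins1* under 1% in both sets gave 76, and comparison cells with *Ddit3* under 0.05% gave 2955. The count of genes lower, 83, became 156 at a threshold of 0.4%, 43 after thinning, 270 without *Ins1* and *Ins2*, 278 centred, 293 with a minimum of 20 UMIs per gene and 505 with none. Cells at the threshold at 5 weeks went from 0 to 16 with a limit of 2000 UMIs.

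Of 161 named genes under up to 15 alternatives, 1530 ratios stayed within the counting interval of the reported one, 810 left it and 0 past the limit changed sign. No paired analysis was possible because each condition was 1 library. Depth limits low genes: *Taf4*, *Fos* and *Slitrk6* had under 100 UMIs in the 164 cells. Sums weight deep cells, and the deepest were comparison cells with much *Ins1*.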

Other observations

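Keratins of the ductal marker list were higher in the *Ddit3*-high cells than in the comparison cells. *Krt8*, an intermediate filament protein of simple epithelia, had 831 UMIs against 815 in the larger set, and its partner *Krt18* a log2 ratio of 1.35 (1.24 to 1.47), with 16.1% of the UMIs of each in 1 cell. The ductal list summed to 623 CPM against 269, with 6 of 7 markers detected in each set. *Muc1* was at 0 in the *Ddit3*-high cells, the other duct markers *Spp1* and *Cldn7* had ratios of 0.04 and 0.58, and both keratins are also made by islet cells. *Actg1*, cytoplasmic actin, had median cells of 3998 and 1151 CPM and a ratio of 1.66 (1.63 to 1.69).

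Nuclear long non-coding RNAs had a median ratio of 0.39. *Neat1*, which builds paraspeckles, was the 1 of 7 that was higher, at 1.36 (1.23 to 1.48), *Malat1* was at 0.71 and *Meg3* at -0.14. Among 12 glycolytic genes (median 0.52), 7 inflammatory genes (median 0.33) and 3 cell-cycle genes (median -0.06) none passed either limit. Of the immature or disallowed genes 3 could be compared and none passed, among them *Sox4* at -0.88 and *Cd81* at 0.02. *Slc39a10*, a zinc importer, was at 1.14 (0.58 to 1.70) and *Slc30a8*, the zinc transporter of the insulin granule, at -0.10. *Pyy* and *Ppy*, hormones of the PP cell, were at -0.67 and -0.37, and 1 comparison cell held 59315 CPM of PP markers. *C1qa*, a complement gene of macrophages, had 19 UMIs in the *Ddit3*-high cells against 164.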
